A study of Mus musculus with 12 samples.

Results

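The 7 genes Plce1, Rbp4, Pik3ap1, Acta2, Marveld1, Aldh18a1 and Noc3l lie on mouse chromosome 19 within 10 Mb of Ffar4, the gene of the fatty acid receptor GPR120. They were chosen by differences between GPR120 knockout (KO) and wild-type (WT) muscle in the arrays described here. In the fit used here they are the genes of that window that differed at an adjusted p under 0.05, averaged over 2 diets. Their KO and WT values are therefore given as a description, without a test. The 7 are among 11345 genes tested, and 148 of the tested genes lie in the window. The array covers them with 18 of its 45037 non-control probe sets, each a group of short probes for a transcript, and 12 of the 18 had a mean log2 signal above 3.78, the median of all probe sets, which served as the filter.

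Muscle RNA of 12 mice aged 16 weeks was measured, with 1 Affymetrix array per mouse. The groups were KO mice on a normal diet (ND), WT mice on ND, KO mice on a high fat diet (HFD) and WT mice on HFD, with 3 mice in each. All 4 groups had a mixed 129/Sv and C57BL/6 background. The sources used here do not give the targeting construct, the sex, the muscle sampled, the litters or the time on the diet. The mouse numbers of the 4 groups lie in separate ranges, and the labels name no cohort. If the groups were separate cohorts, neither genotype nor diet could be told apart from cohort.

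GPR120 senses long-chain fatty acids at the cell surface and is best known from fat tissue, macrophages and gut endocrine cells. A gene targeted in stem cells of one mouse strain and bred with another strain keeps a stretch of the first strain's chromosome around it, because recombination close to the target is rare. Expression of genes in that stretch can then differ between knockout and wild-type mice through inherited sequence variants, and short array probes also read a base difference as a change in signal. The sources used here do not say which strain's DNA surrounds Ffar4 in the KO or the WT mice, so loss of Ffar4, linked strain variants and probe mismatches cannot be told apart in these data.

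Rbp4, Plce1 and Noc3l are the members within 1 Mb of Ffar4. The gap between the Ffar4 and Rbp4 gene bodies is 2.36 kb, and the genes are on opposite strands with their ends facing each other. Plce1 and Noc3l, 367 and 674 kb after Ffar4, are also arranged end to end, with a gap of 3015 bases, yet their signals differed in opposite directions between KO and WT. Positions were read from RefSeq on GRCm38.p6, since the deposited table names no build. The promoters of these genes are shown because the members nearest to the targeted locus do not share a start site with it or with each other. RefSeq lists 2 start sites for Rbp4, and each sequence below runs from 250 bases before to 50 bases after a start, 5′ to 3′ on the strand of the gene. The start shown for Plce1 lies inside its gene body, past the edge from which the 367 kb distance was measured. Capitals mark matches on either strand to 4 short motifs. The TATA box was searched as TATAAA. The CCAAT box was searched as its name spells it. The GC box was searched as GGGCGG. The E-box was searched as CACGTG. No matches overlapped in the sequences shown.
Rbp4, first start, GRCm38.p6 chr19:38124762-38125061, minus strand: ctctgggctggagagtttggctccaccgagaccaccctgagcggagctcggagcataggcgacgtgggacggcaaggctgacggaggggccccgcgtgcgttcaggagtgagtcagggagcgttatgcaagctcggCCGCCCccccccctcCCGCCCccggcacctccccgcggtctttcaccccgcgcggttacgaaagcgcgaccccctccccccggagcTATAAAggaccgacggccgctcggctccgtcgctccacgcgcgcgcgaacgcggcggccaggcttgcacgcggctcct
Rbp4, other start, GRCm38.p6 chr19:38125272-38125571, minus strand: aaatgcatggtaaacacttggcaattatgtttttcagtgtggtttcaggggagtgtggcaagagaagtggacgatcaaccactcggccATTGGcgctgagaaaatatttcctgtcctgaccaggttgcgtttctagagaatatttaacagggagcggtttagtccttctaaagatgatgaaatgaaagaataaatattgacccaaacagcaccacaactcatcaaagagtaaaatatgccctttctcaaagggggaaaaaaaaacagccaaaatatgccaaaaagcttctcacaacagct
Plce1, GRCm38.p6 chr19:38523947-38524246, plus strand: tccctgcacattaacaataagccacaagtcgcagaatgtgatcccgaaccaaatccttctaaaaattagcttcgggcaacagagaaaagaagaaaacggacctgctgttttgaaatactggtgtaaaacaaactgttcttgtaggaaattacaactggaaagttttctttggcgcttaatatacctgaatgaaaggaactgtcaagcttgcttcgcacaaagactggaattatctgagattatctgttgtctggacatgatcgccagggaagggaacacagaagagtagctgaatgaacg
Noc3l, GRCm38.p6 chr19:38819188-38819487, minus strand: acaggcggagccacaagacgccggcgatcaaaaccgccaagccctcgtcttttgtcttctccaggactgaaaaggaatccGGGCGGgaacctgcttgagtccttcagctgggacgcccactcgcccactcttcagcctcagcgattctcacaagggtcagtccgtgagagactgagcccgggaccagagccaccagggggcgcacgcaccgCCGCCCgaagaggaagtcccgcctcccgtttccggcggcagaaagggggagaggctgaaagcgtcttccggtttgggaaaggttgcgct

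The first Rbp4 promoter was 72.0% G and C and held 1 TATA box and 2 GC boxes, while the other was 40.7% G and C with 1 CCAAT box. The sequence at the internal Plce1 start was 41.0% G and C and held none of the 4 motifs, and the outer edge of that gene was not read. The Noc3l promoter was 63.0% G and C with 2 GC boxes. Over all 32851 promoters of the RefSeq table the median was 52.7% G and C, and 13.6% held the TATA box, 37.4% the CCAAT box, 35.7% the GC box and 7.15% the E-box. All 7 members were found in that table by symbol. The reference is C57BL/6J, and the sources used here do not say whether the mice carry these sequences. A match describes the letters only.

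The table held log2 MAS5 signals, with array medians of 3.87 to 4.16. The defining markers of skeletal muscle were all above the filter (11 of 11), and the sum of their linear signals ranged over 117761 to 143795 in KO on ND, 125957 to 132122 in WT on ND, 132651 to 143480 in KO on HFD and 130878 to 151812 in WT on HFD. Ffar4 could not check the genotype labels. Its 1 probe set averaged 1.61, a rank at the 20.1th percentile, and read 3.22, 3.88 and 0.33 in KO and −0.19, 2.26 and −1.39 in WT on ND, and 3.19, 2.76 and 0.98 in KO and 1.28, 2.40 and 0.56 in WT on HFD. KO and WT overlapped on each diet, and the sources used here do not place this probe set inside or outside the deletion. The 3 arrays per group limit the precision throughout, and nothing but the mouse numbers says that the mice are separate animals.

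Plce1 encodes phospholipase C epsilon, an enzyme that cleaves a membrane phosphoinositide and is activated by Ras-family GTPases. Its probe set 1452398_at read 5.81, 6.34 and 6.15 in KO mice on ND, against 4.82, 5.03 and 4.97 in WT mice on ND. On HFD it read 6.08, 6.05 and 6.42 in KO mice, against 5.57, 5.45 and 5.02 in WT mice. All 6 KO mice lay above all 6 WT mice. The KO minus WT difference was 1.16 on the log2 scale on ND (SE 0.21, 2.23-fold) and 0.83 on HFD (SE 0.21, 1.78-fold). The group means ran from KO on HFD (6.18 ± 0.20) and KO on ND (6.10 ± 0.27) down to WT on HFD (5.35 ± 0.29) and WT on ND (4.94 ± 0.11) (SD, n = 3 mice each), and the neighbours KO on HFD and KO on ND lay within their spread. In a bulk sample, fewer cells of a type and less RNA per cell cannot be told apart, here and for every gene below.

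Pik3ap1 encodes an adaptor, also called BCAP, that links receptors of B cells and macrophages to phosphoinositide 3-kinase. It was the dimmest member, with a mean of 4.15 for probe set 1429831_at, at the 54.3rd percentile of the array. It passed the filter of 3.78 through its KO mice, as both WT means, given below, lay under the filter. On ND the 3 KO mice read 4.87, 3.61 and 3.93 and the 3 WT mice 3.45, 3.58 and 2.48. On HFD the KO mice read 5.89, 5.28 and 5.58 and the WT mice 4.25, 3.36 and 3.51. The groups did not overlap on either diet, by a margin of a few hundredths on ND and by a wide gap on HFD, and the lowest KO mouse on ND lay below the highest WT mouse on HFD. The difference was 0.97 on ND (SE 0.44, 1.96-fold) and 1.88 on HFD (SE 0.44, 3.68-fold). KO on HFD averaged 5.58 ± 0.30, above KO on ND at 4.14 ± 0.66, while KO on ND, WT on HFD at 3.71 ± 0.48 and WT on ND at 3.17 ± 0.60 followed each other within their spread (SD, n = 3 each). The other probe set, 1421285_at, was near the bottom of the array (mean 0.63, at the 7.79th percentile). It gave −0.63 on ND and −0.30 on HFD with an SE of 0.95 on each, so it did not carry the direction of the brighter one.

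Rbp4, the gene next to Ffar4, encodes the plasma carrier of retinol, which is made mainly by liver and fat cells. Probe set 1426225_at read 6.28, 7.20 and 7.75 in KO mice on ND, against 6.49, 6.15 and 6.15 in WT mice on ND. On HFD the readings were 7.54, 7.77 and 7.36 in KO mice, against 6.38, 6.21 and 5.64 in WT mice. On ND 1 KO mouse lay inside the WT range and the other two above it, and on HFD every KO mouse lay above every WT mouse. The difference was 0.81 on ND (SE 0.30, 1.75-fold) and 1.48 on HFD (SE 0.30, 2.79-fold). KO on HFD (7.56 ± 0.20) and KO on ND (7.08 ± 0.74) were neighbours within their spread, as were WT on HFD (6.08 ± 0.39) and WT on ND (6.27 ± 0.20) (SD, n = 3 each).

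The 9 adipocyte markers on the array were all above the filter, and their summed linear signal was 14858 to 20596 in KO and 16178 to 18183 in WT on ND, and 26569 to 26847 in KO and 18577 to 26567 in WT on HFD. Of the KO minus WT differences of these markers, 3 were above 0 on ND and 7 on HFD, with medians of −0.09 and 0.32, and none passed the threshold on either diet (2 and 5 at an unadjusted p under 0.05 in limma). Such an unadjusted p was found for 11.3% of all tested genes on ND and 14.8% on HFD. Adiponectin (Adipoq) differed by −0.23 on ND and 1.41 on HFD. Of the 5 liver markers on the array, albumin (Alb), Apoa1, Fgb and transthyretin (Ttr) were below the filter. The part of adipocyte RNA in the Rbp4 difference was not tested.

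Acta2 encodes the actin of vascular smooth muscle and was the brightest member. Probe set 1416454_s_at read 10.004, 9.93 and 10.05 in KO mice on ND, against 9.70, 9.03 and 9.01 in WT mice on ND. On HFD the signals were 10.74, 10.27 and 9.93 in KO mice and 9.60, 9.78 and 9.66 in WT mice. All 6 KO mice lay above all 6 WT mice. The difference was 0.75 on ND (SE 0.20, 1.68-fold) and 0.64 on HFD (SE 0.20, 1.55-fold). Means were 10.31 ± 0.41 in KO on HFD, 9.99 ± 0.06 in KO on ND, 9.68 ± 0.09 in WT on HFD and 9.25 ± 0.40 in WT on ND (SD, n = 3 each), and KO on HFD and KO on ND were within their spread. The other probe sets of Acta2, 1444105_at and 1456658_at, were below the filter at means of 3.36 and 1.95. They gave 0.17 (SE 0.54) and 1.13 (SE 1.11) on ND and 0.35 (SE 0.54) and 0.50 (SE 1.11) on HFD, all above 0 but no larger than about their SE. The Acta2 difference thus rests on 1416454_s_at, and whether its probes also match other transcripts was not tested.

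A list of smooth muscle and pericyte genes was read beside Acta2. Of 18 listed, 17 were tested, and 1 passed the threshold in KO minus WT averaged over the diets: Cald1, the actin-binding protein caldesmon, was higher in KO (0.40, SE 0.08, limma adjusted p = 0.0305). The call was lost under 3 of 10 other settings and in 8 of 12 omissions of 1 mouse (adjusted p from 0.0121 to 0.138). Of the 17 differences 15 were above 0, with a median of 0.27 against 0.02 over all tested genes, and 8 had an unadjusted p under 0.05 in limma. Of all tested genes 1.61% passed the threshold in this contrast and 15.3% had an unadjusted p under 0.05. Smooth muscle myosin (Myh11, 0.64, adjusted p = 0.178) and transgelin (Tagln, 0.59, adjusted p = 0.196) did not pass. The summed signal of the 13 markers of these cells on the array was 4921 to 5750 in KO and 4103 to 5586 in WT on ND, and 5356 to 5809 in KO and 4853 to 5893 in WT on HFD. Of these 13, Myocd was below the filter and the other 12 above it. The part of vessel wall cells in the Acta2 difference was not tested.

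Marveld1 encodes a membrane protein with a MARVEL domain, the fold shared by occludin and related proteins. Its brightest probe set, 1439381_x_at, read 8.45, 8.32 and 8.56 in KO mice on ND, against 7.95, 7.92 and 8.03 in WT mice on ND. On HFD the signals were 8.78, 8.87 and 8.79 in KO mice, against 8.25, 8.70 and 8.22 in WT mice. KO lay above WT on each diet without overlap, but 1 WT mouse on HFD lay above every KO mouse on ND. The differences, 0.48 on ND (SE 0.13, 1.39-fold) and 0.42 on HFD (SE 0.13, 1.34-fold), were the smallest among the 7 genes on their brightest probe sets. The second probe set above the filter, 1433538_at, gave 0.22 on ND and 0.54 on HFD (SE 0.28 each). The others, 1436830_at and 1436773_x_at, were below the filter and gave −0.99 (SE 0.82) and −1.16 (SE 1.003) on ND, against −0.02 (SE 0.82) and 0.47 (SE 1.003) on HFD. The array maker's suffix _x_at marks probe sets with probes that can match other transcripts, which applies to the brightest one here and to 4 of 5 for the next gene.

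Aldh18a1 encodes delta-1-pyrroline-5-carboxylate synthase, the enzyme that starts proline and ornithine synthesis from glutamate. On ND its brightest probe set, 1437325_x_at, read 5.21, 4.22 and 5.04 in KO mice, against 6.41, 6.37 and 6.48 in WT mice. On HFD it read 6.17, 5.13 and 5.90 in KO mice, against 7.05, 6.07 and 6.20 in WT mice. The KO mice lay far below the WT mice on ND, and on HFD the highest KO mouse lay between WT mice. The difference was −1.60 on ND (SE 0.33, 0.330 times the WT signal) and −0.71 on HFD (SE 0.33, 0.612 times). By group mean, from low to high, the order was KO on ND (4.82 ± 0.53), KO on HFD (5.73 ± 0.54), WT on ND (6.42 ± 0.06) and WT on HFD (6.44 ± 0.53) (SD, n = 3 each), with both WT groups within their spread.

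Both of the next brightest probe sets of Aldh18a1 had like differences. Probe set 1435855_x_at gave −1.05 on ND and −1.34 on HFD (SE 0.52 each), and 1415836_at gave −1.12 and −1.20 (SE 0.56 each). On 1415836_at the KO mice read 1.81, 4.04 and 3.43 on ND and 2.86, 4.05 and 3.80 on HFD, and the WT mice 4.46, 4.07 and 4.11 on ND and 5.07, 4.69 and 4.54 on HFD. All 6 KO mice were below all 6 WT mice there, the closest by a few hundredths. Probe set 1437333_x_at gave −0.62 on each diet (SE 0.63), and its value on ND rested on 1 KO mouse at 1.67: without it the difference was 0.23. The last, 1437620_x_at, below the filter, gave −0.85 on ND and 0.89 on HFD (SE 0.58 each).

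Noc3l encodes a nucleolar protein that, from work in yeast, takes part in assembly of the large ribosomal subunit. Probe set 1437500_at read 5.36, 5.70 and 5.31 in KO mice on ND, against 5.77, 5.79 and 6.47 in WT mice on ND. The HFD values were 5.09, 5.24 and 5.05 in KO mice and 6.28, 6.09 and 5.96 in WT mice. All 6 KO mice lay below all 6 WT mice. The difference was −0.55 on ND (SE 0.22, 0.681 times the WT signal) and −0.98 on HFD (SE 0.22, 0.508 times). Group means, from low to high, were 5.13 ± 0.10 in KO on HFD, 5.46 ± 0.21 in KO on ND, 6.01 ± 0.40 in WT on ND and 6.11 ± 0.16 in WT on HFD (SD, n = 3 each), and both WT groups were within their spread.

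The other Noc3l probe set, 1426286_at, was of similar brightness. It read 4.98, 4.99 and 5.17 in KO and 5.53, 5.73 and 5.99 in WT on ND, a difference of −0.71 (SE 0.28) without overlap. On HFD it read 5.17, 4.90 and 5.39 in KO and 5.55, 5.45 and 4.59 in WT, a difference of −0.05 (SE 0.28) in which 1 WT mouse was the lowest of all.

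**Figure D1:**
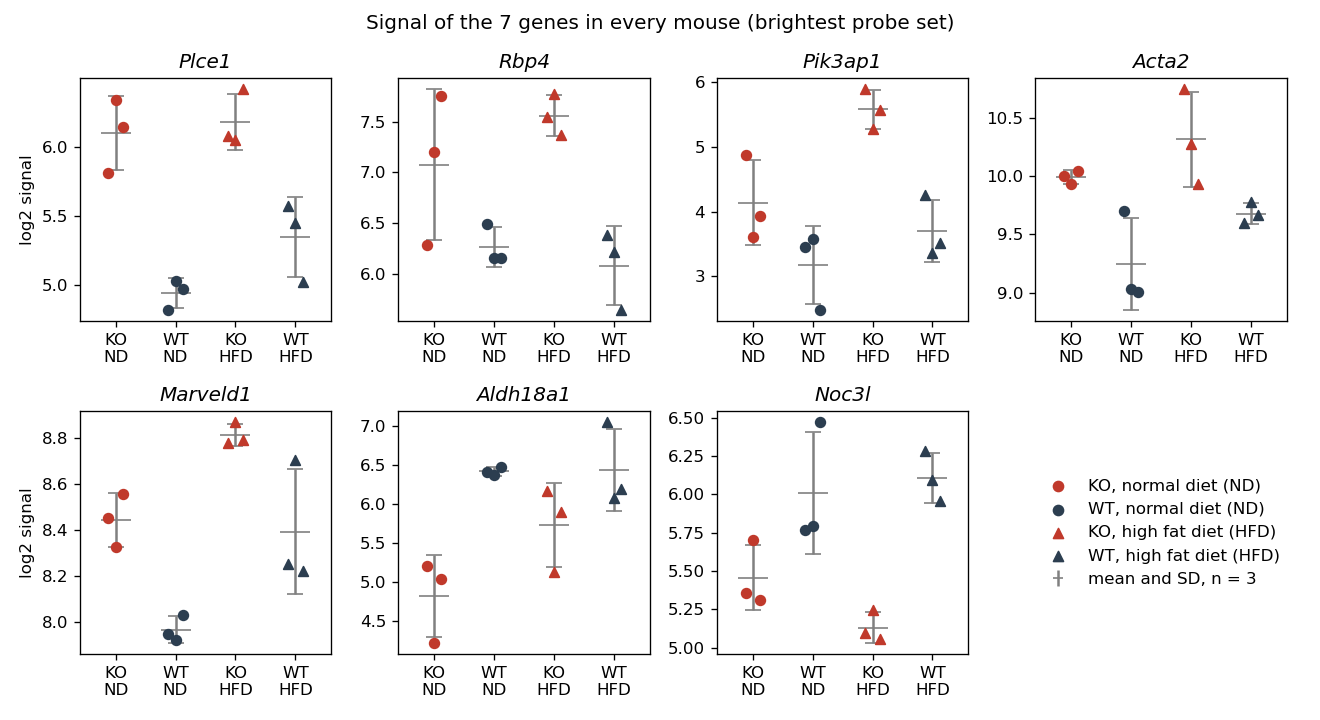
Log2 signal (vertical axis) of the brightest probe set of each gene in every mouse, by group (horizontal axis), with KO in red and WT in dark blue, circles for ND, triangles for HFD, and grey bars for the mean and SD of 3 mice. Plce1, Acta2 and Noc3l have all 6 KO mice on one side of all 6 WT mice, and in Rbp4 the KO mouse at 6.28 on ND lies within the WT range.

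Over the 18 probe sets, 8 were higher in KO on both diets, 8 lower on both, and 2, of Marveld1 and Aldh18a1, had opposite signs on the 2 diets. The 6 KO and 6 WT mice did not overlap on 4 of the 18, where 0.571% of all 45037 probe sets showed such a separation. Since KO and WT differences chose the genes, nothing is read from the count. On the brightest probe sets 5 genes were higher and 2 lower in KO, where 0.899% of tested genes passed as higher and 0.714% as lower. The groups did not overlap for 6 of the 7 genes on ND and 6 of 7 on HFD, beside 17% and 19.4% of all tested genes, and over both diets for 3 of 7, beside 1.02%. Dim probe sets had the widest errors, up to an SE of 1.11 for 1456658_at of Acta2, against 0.13 for the bright 1439381_x_at of Marveld1.

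**Figure D2:**
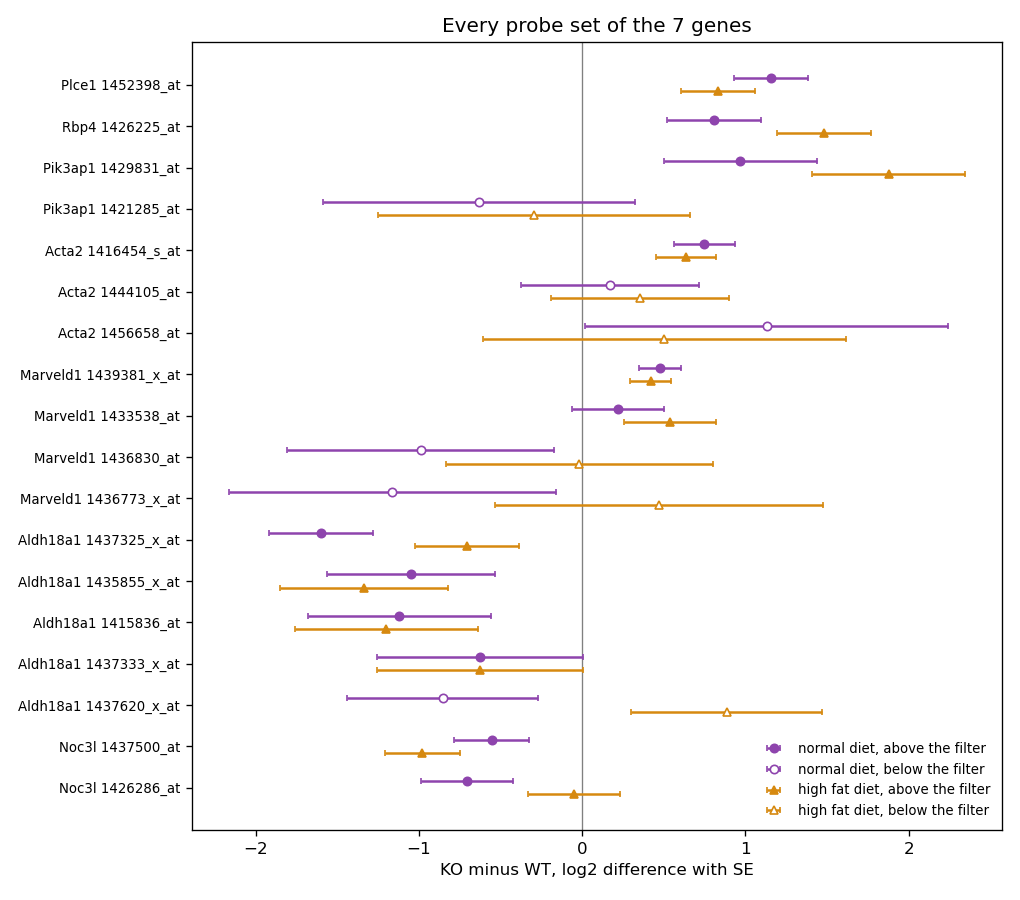
KO minus WT log2 difference (horizontal axis) with its SE for each of the 18 probe sets, on ND (purple circles) and on HFD (orange triangles), filled where the mean signal passed the filter and open where it did not. The filled points of Plce1, Rbp4, Pik3ap1, Acta2 and Marveld1 lie above 0 and those of Aldh18a1 and Noc3l below 0, while open points have SEs from 0.54 to 1.11 and fall on either side.

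In the averaged KO minus WT contrast all 7 members passed, where 1.61% of tested genes did, and KO and WT differences had chosen them. The number of window genes past the threshold was 2 with no intensity trend or with the 3′ over 5′ control ratio (a sign of RNA quality) as a covariate, 3 with a filter at the 75th percentile, and 2 to 8 with 1 mouse left out (2 without the second WT mouse on ND, 3 without the first KO mouse on either diet or the first WT mouse on HFD, 4 without the last KO mouse on either diet). Pik3ap1 was the nearest to the threshold from inside, with the smallest difference relative to its SE (1.42, SE 0.31). Just outside lay Tbc1d12, a neighbour at 0.72 Mb that encodes a protein with the domain of Rab GTPase activators, with 0.48 (SE 0.12), and the kinase gene Jak2 at −8.78 Mb with −0.48 (SE 0.13). Negative distances are before Ffar4 on the chromosome.

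The 7 members stood at −3.84 Mb (Acta2), 2.36 kb (Rbp4), 367 kb (Plce1), 674 kb (Noc3l), 2.44 Mb (Aldh18a1), 3.16 Mb (Pik3ap1) and 4.03 Mb (Marveld1). No member was farther than 5 Mb from Ffar4, although the window reached 10 Mb. Within 5 Mb, 67 genes were tested and 7 passed in KO minus WT averaged over the diets (10.4%). Between 5 and 10 Mb none of 81 passed in limma (15 at an unadjusted p under 0.05, 18.5%, beside 15.3% of all tested genes). The median size of the averaged difference was 0.23 within 5 Mb and 0.13 between 5 and 10 Mb, and 0.13 over all tested genes. Farther along chromosome 19, 2 of 54 genes passed between 10 and 20 Mb (3.70%) and 1 of 208 beyond 20 Mb (0.481%), and 173 of 10902 did on other chromosomes (1.59%). How the share depends on distance was not tested, as the members were picked by KO and WT differences in the same data.

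The 141 window genes that are not members are those that did not pass the averaged contrast, so nothing is read from the absence of calls among them. Of them 27 had an unadjusted p under 0.05 in limma (19.1%, beside 15.3% of all tested genes), and their median difference was 0.01. These values are a description too. The genes nearest to Ffar4 are given next. Before it, Myof, a membrane repair protein of the dysferlin family, at −0.05 Mb gave 0.06 on ND and 0.81 on HFD (SE 0.25, limma adjusted p = 0.957 and 0.136). On HFD its 3 KO mice, at 5.66, 5.30 and 5.57, lay above its 3 WT mice, at 4.37, 4.71 and 5.03. Exoc6, an exocyst subunit, at −0.41 Mb gave 0.03 and −0.11, and the homeobox gene Hhex at −0.66 Mb gave −0.11 and 0.61. After it, Fra10ac1 at 0.07 Mb gave 0.15 and 0.01, and Slc35g1 at 0.28 Mb gave 0.41 and 0.29, with no adjusted p under 0.7 for these 2 genes on either diet.

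Of the 141, 2 genes had all 6 KO mice on one side of all 6 WT mice (1.42%, beside 1.02% of all tested genes). Tbc1d12, which lies just past Noc3l, read 6.14, 6.61 and 6.46 in KO and 5.89, 5.94 and 5.82 in WT on ND, and 6.32, 6.20 and 6.31 in KO and 5.98, 5.56 and 5.95 in WT on HFD, with a limma adjusted p of 0.0694 for the averaged difference. The ubiquitin ligase gene Marchf5, at −0.87 Mb, had a small averaged difference of −0.13 (SE 0.05, adjusted p = 0.231) with very tight groups.

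Fas, the death receptor gene, was the 1 window gene outside the 7 that passed on a single diet, where 0.414% of tested genes passed on ND. It lies 35.1 kb from Acta2, with the starts of the genes facing each other, and was lower in KO on ND, where Acta2 was higher. Fas read 5.65, 5.51 and 6.48 in KO mice on ND, against 7.08, 7.02 and 7.31 in WT mice on ND. On HFD the values were 5.98, 6.01 and 5.57 in KO mice and 6.01, 5.51 and 6.01 in WT mice. The WT mice on ND stood apart from the other 3 groups. The difference was −1.26 on ND (SE 0.25, limma adjusted p = 0.0466) and 0.01 on HFD (SE 0.25, adjusted p = 0.992). The change of the difference between the diets, 1.27 (SE 0.35), did not pass (adjusted p = 0.235), so the genotype difference is not shown to differ between the diets. For diet itself, Fas fell on HFD averaged over the genotypes (−0.66, SE 0.17, adjusted p = 0.0249), with −0.02 in KO and −1.29 in WT. The KO minus WT call on ND was lost under 6 of 9 other settings and in 10 of 12 omissions of 1 mouse, with adjusted p from 0.0135 to 0.172 and differences of −1.56 to −1.07 over the omissions.

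**Figure D3:**
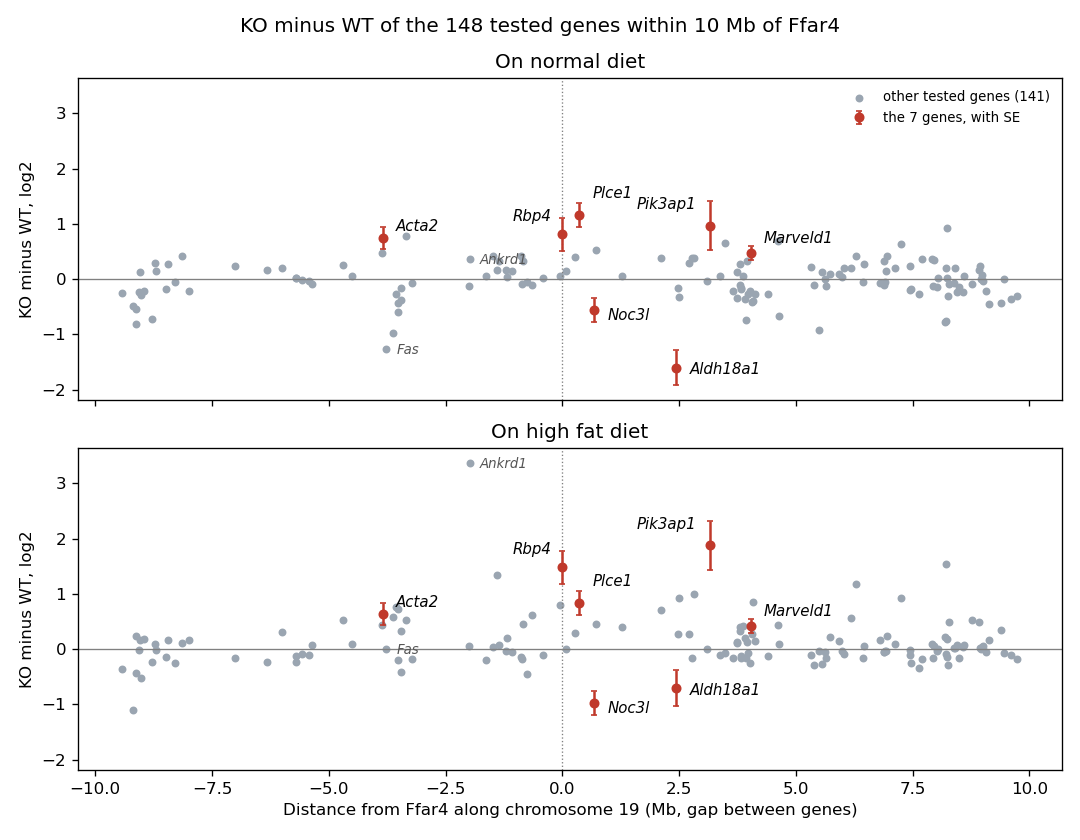
KO minus WT log2 difference (vertical axis) of the 148 tested genes within 10 Mb against their distance from Ffar4 (horizontal axis, Mb along chromosome 19, measured between gene bodies), on ND (top) and HFD (bottom). The 7 genes are red with SE bars and lie between −3.84 and 4.03 Mb, the other 141 are grey, and Fas and Ankrd1 are labelled. Ankrd1, not a member, had a difference of 3.37 on HFD.

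Beyond 10 Mb the nearest gene called in a genotype contrast before Ffar4 was Aldh1a7 at −17.37 Mb, a retinal dehydrogenase relative, higher in KO by 2.41 averaged over the diets (SE 0.50, limma adjusted p = 0.0278). Its neighbour Aldh1a1, a retinal dehydrogenase, at −17.45 Mb was lower in KO by the same contrast (−0.55, SE 0.13, adjusted p = 0.0465). Aldh1a7 and Aldh1a1 are close paralogs, and cross-hybridisation between their probes was not tested. The Aldh1a7 call was lost under 2 of 9 other settings and in 6 of 12 omissions (adjusted p from 0.0122 to 0.0840), and the Aldh1a1 call under 7 of 10 and in 10 of 12 (0.0206 to 0.117). Beyond 10 Mb, 223 tested genes lay before Ffar4, and 7 of them were called on ND, on HFD or averaged over the diets. In the averaged contrast alone 3 of the 223 passed (1.35%, beside 1.61% of all tested genes). After Ffar4 39 were tested and none was called in limma.

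The averaged effect of diet is not the contrast that chose the members, and it was tested. Both contrasts use the same estimate of each gene's spread, so the test is not fully independent of the choice. Marveld1 rose on HFD by its brightest probe set and was the 1 member of 7 to pass. That count is near the share of all tested genes that passed, 13.7% (7.49% higher and 6.19% lower on HFD). Its signal on HFD was 8.78, 8.87 and 8.79 in KO and 8.25, 8.70 and 8.22 in WT, all above the mice of the same genotype on ND. The HFD minus ND difference was 0.40 (SE 0.09, 1.32-fold, limma adjusted p = 0.0130), with 0.37 in KO and 0.42 in WT. The call was lost with median centring of the arrays (0.32, adjusted p = 0.0814) and with the 3′ over 5′ control ratio as a covariate (0.37, adjusted p = 0.136). The second probe set above the filter, 1433538_at, gave 0.14 (SE 0.20, limma adjusted p = 0.820 over all probe sets), with 0.30 in KO and −0.02 in WT. Below the filter, 1436830_at gave 1.14 (SE 0.58) and 1436773_x_at 1.49 (SE 0.71). The call thus rests on the brightest probe set.

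The mean 3′ over 5′ ratio of the Actb and Gapdh control probe sets, a sign of RNA quality, averaged higher on HFD: 0.16 ± 0.13 in KO on HFD and 0.18 ± 0.02 in WT on HFD, against 0.07 ± 0.06 in KO on ND and −0.02 ± 0.09 in WT on ND (log2, SD, n = 3). The diets stood apart in WT but overlapped in KO, with 0.28, 0.19 and 0.02 on HFD and 0.01, 0.09 and 0.12 on ND. Pik3ap1 averaged 0.99 higher on HFD (SE 0.31, adjusted p = 0.0509) and passed under 4 other processing settings, with adjusted p from 0.0263 to 0.0461, and without the first KO mouse on ND (1.17, adjusted p = 0.0332). Its WT means, 3.17 on ND and 3.71 on HFD, lay below the filter of 3.78. Pik3ap1 thus entered the diet test through its KO mice, and nothing is read from these passes. With no filter it did not pass (limma adjusted p = 0.099). Acta2 averaged 0.38 higher (SE 0.14, adjusted p = 0.0891) and passed without WT mouse 1 on ND (0.49, adjusted p = 0.0164) or KO mouse 3 on HFD (0.47, adjusted p = 0.0406). Aldh18a1 (0.47, SE 0.23, adjusted p = 0.198), Plce1 (0.24, SE 0.15, adjusted p = 0.307), Rbp4 (0.15, SE 0.21, adjusted p = 0.689) and Noc3l (−0.11, SE 0.15, adjusted p = 0.671) did not pass.

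Within genotypes, Pik3ap1 differed between the diets by 1.44 in KO and 0.54 in WT (SE 0.44 each), and Aldh18a1 by 0.91 in KO and 0.02 in WT (SE 0.33 each). These are the brightest probe sets. For Aldh18a1, 1435855_x_at gave 0.24 in KO and 0.53 in WT (SE 0.52 each), and 1415836_at 0.475 and 0.555 (SE 0.56 each). Probe set 1437333_x_at gave 0.34 in both (SE 0.63 each). Below the filter, 1437620_x_at gave 1.14 in KO and −0.60 in WT (SE 0.58 each). No gene of the window passed for the interaction of genotype and diet in limma, where 0.141% of all tested genes did. At an unadjusted p under 0.05 there were 13 of 148 (8.78%), beside 10.4% of all tested genes. Of the 141 other genes of the window 17 passed for the averaged diet effect (12.1%, 10 higher and 7 lower on HFD), a share close to the 13.7% of all tested genes. With the Actb and Gapdh control ratio as a covariate, the window count, members included, was 2 in place of 18.

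**Figure D4:**
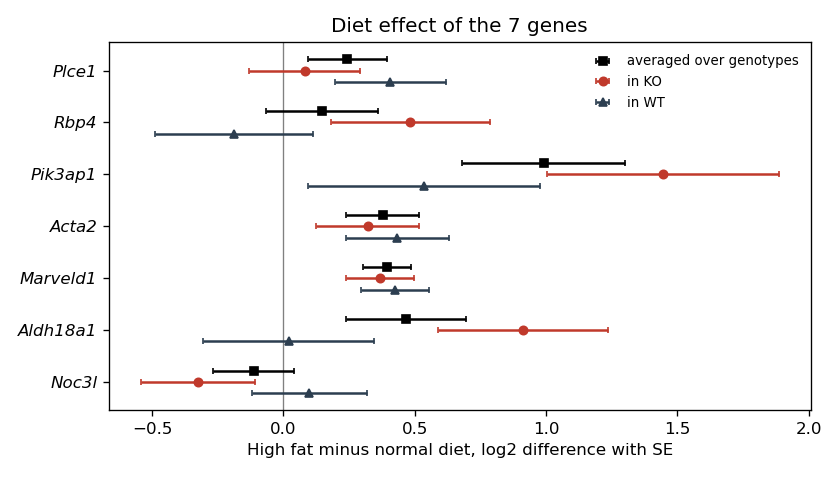
HFD minus ND log2 difference (horizontal axis) with its SE for each of the 7 genes, averaged over genotypes (black squares), in KO (red circles) and in WT (dark blue triangles). Marveld1 has its 3 values at 0.40, 0.37 and 0.42, and Pik3ap1 has the largest averaged difference, 0.99, with a wider SE of 0.31.

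Genes that work with each member were read in the averaged KO minus WT contrast, where 1.61% of tested genes passed. In that contrast 15.3% of tested genes had an unadjusted p under 0.05 in limma. Of the retinoid list, 13 of 23 genes were tested and 2 fell in KO. Rbp7, a retinol-binding protein of fat and endothelium, read 6.89, 6.75 and 7.60 in KO and 8.27, 8.68 and 7.18 in WT on ND, and 7.51, 7.80 and 7.04 in KO and 9.11, 9.90 and 9.43 in WT on HFD. Groups overlapped on ND through 1 WT mouse and stood apart on HFD, and the averaged difference was −1.50 (SE 0.24, limma adjusted p = 0.0100). Aldh1a1, given above, was the other. The Rbp7 call held under all 10 other settings and all 12 omissions of 1 mouse (adjusted p from 0.00248 to 0.0473). The median of the list was −0.07, against 0.02 over all tested genes.

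Of the phospholipase C and Ras list, 15 of 22 were tested and 1 fell. Plcl1, a relative of the phospholipases that lacks their catalytic activity, read 3.54, 4.31 and 4.14 in KO and 5.39, 5.25 and 4.96 in WT on ND, and 4.38, 3.46 and 4.996 in KO and 5.78, 5.39 and 5.67 in WT on HFD. KO lay below WT on each diet, and the averaged difference was −1.27 (SE 0.26, adjusted p = 0.0265). The call was lost under 2 of 9 other settings and in 7 of 12 omissions (adjusted p from 0.0145 to 0.0711). The list's median was −0.07.

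The lists for Pik3ap1, Aldh18a1, Noc3l and Marveld1 held no gene past the threshold in limma. Of 12 tested genes of PI3-kinase and B cell signalling 2 had an unadjusted p under 0.05, the median was 0.04, and the largest differences were Pik3cg (0.74, adjusted p = 0.609) and Blnk (0.69, adjusted p = 0.196), a B cell adaptor that itself lies at 2.82 Mb. The 8 macrophage and B cell markers above the filter were all below 0 in KO minus WT on ND (median −0.44) and all above 0 on HFD (median 0.53). For that interaction 6 of 8 had an unadjusted p under 0.05 in limma, beside 10.4% of all tested genes, but none an adjusted one. On HFD Cd68, a macrophage lysosomal protein, passed (2.10, SE 0.39, limma adjusted p = 0.0311), where 0.732% of tested genes did. That call was lost with no intensity trend and in 4 of 12 omissions (adjusted p from 0.00973 to 0.134). The summed linear signal of the 11 such markers on the array was 2471 to 3257 in KO and 3428 to 3911 in WT on ND, and 3753 to 6383 in KO and 2098 to 4354 in WT on HFD. This sum includes the B cell genes Cd79a, Cd79b and Ms4a1, which were below the filter. The part of macrophages and B cells in the Pik3ap1 differences was not tested.

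Of 8 tested genes of proline and ornithine metabolism 3 had an unadjusted p under 0.05, with a median of −0.09. The largest differences were Aldh4a1, which breaks down the product of the Aldh18a1 enzyme (1.11, adjusted p = 0.275), and ornithine decarboxylase Odc1 (−0.36, adjusted p = 0.0807). None of 21 tested genes of 60S ribosome assembly had even an unadjusted p under 0.05, and the largest, Nol9 and Nop58, differed by 0.23 and 0.17. None of 13 tested MARVEL domain and tight junction genes had one either, with Mal at 0.48 (adjusted p = 0.377) and Cmtm6 at 0.43 (adjusted p = 0.382).

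The genes with the most similar pattern over the 12 arrays are given as a description, since mice of 1 group share genotype and diet. Marveld1 was most like Cav2, the caveolar coat protein (Pearson r = 0.970), and the lipase gene Mgll (0.962). Acta2 was most like Ldb2 (0.952) and Naalad2 (0.951), Plce1 like Nudt9 (0.935) and Zfp943 (0.907), and Pik3ap1 like the calcium-storage protein Casq2 (0.934) and the growth factor Vegfc (0.926). Rbp4 was most like Mpped2 (0.915) and malic enzyme Me1 (0.897), Aldh18a1 like Mcur1 (0.872) and Slc35e1 (0.863), and Noc3l like Psmd9 (0.863) and Flvcr1 (0.858). None of these 14 genes lies on chromosome 19.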

How the data were processed

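Muscle RNA was extracted with guanidine hydrochloride, phenol and chloroform and labelled with biotin, per the labels' protocols. Each deposited value is a log2 signal, made by the authors with MAS5 (per the submitters' processing notes, which state no version). Of 45101 probe sets 64 controls were removed; of the rest, 34945 carried 1 gene symbol, 932 several and 9160 none, and only the first were named. For tests, the brightest probe set above the filter (3.78 on the log2 scale, 13.8 linear) stood for its gene. One limma 3.58.1 model (R 4.3.3; 4 group means, empirical Bayes with an intensity trend, 12 arrays) was fitted, with Benjamini-Hochberg adjustment over 11345 genes and a threshold of 0.05. Values of the brightest probe sets come from this fit, and those of the others from the same model over 45037 probe sets. Distances between gene bodies come from RefSeq GRCm38.p6, which placed 11312 genes. Members, lists, markers and the rule for named genes (every member probe set, window genes past the threshold, nearest genes, leading list genes, the 2 most similar genes) were chosen with earlier results of these data known. The scripts were tested on simulated data. Alternatives are given in the closing section.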

Additional observations from a re-analysis of the deposited data

How the results depend on the processing

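No paired analysis was possible because the mouse numbers of the groups differ and mark no pairs. The count of window genes past the threshold on ND (2) was 0 with no filter, a 75th-percentile filter, median centring or the 3′ over 5′ covariate, 1 with quantile normalization or no intensity trend, and 0 to 2 with 1 mouse left out. On HFD (1) it was 0 with median centring, no trend or array weights, 2 with an offset at the 50th percentile or a 20 Mb window, and 0 to 5 with 1 mouse left out, the 5 without the second WT mouse on HFD. Averaged over the diets (7) it was 3 with the 75th-percentile filter, 12 with all probe sets counted, 2 with no trend or the covariate, and 2 to 8 with 1 mouse left out: 2 without the second WT mouse on ND, 3 without the first KO mouse on either diet or the first WT mouse on HFD, and 4 without KO mouse 3 on either diet. For diet (18) it was 29 with array weights, 2 with the covariate and 12 to 26 with 1 mouse left out. No interaction passed in the window in any setting run (limma; 13 genes at an unadjusted p under 0.05 as reported). Members past for diet (1) numbered 0 with median centring or the covariate, 2 with either offset, no trend or array weights, and 1 to 2 with 1 mouse left out. Partner genes past (4) numbered 2 with median centring, 1 with no trend or the covariate, and 1 to 5 with 1 mouse left out. The alternatives for single genes outside the 7, given beside them, were chosen after seeing the data. Member probe sets with separate genotypes (4) numbered 4 to 6. Diet differences changed sign for Rbp4 with the covariate (−0.0919) and without KO mouse 1 on ND (−0.0506; −0.0506 to 0.3163 over the omitted mice), and for Noc3l without WT mouse 3 on ND (0.0016; −0.1739 to 0.0016 over the omitted mice). Of the recomputed probe set differences, 604 moved by less than the replicate spread and 8 by more, all 8 with the larger offset, and 13 signs changed, all on single-mouse omissions and none on a brightest probe set. The causes were not tested.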

Other observations

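The retinoid, 60S ribosome assembly and phospholipase C lists each had 3 or more genes past the threshold for diet. Of 13 tested retinoid genes 5 rose on HFD averaged over the genotypes, beside 7.49% of all tested genes: Aldh1a3 (0.98, SE 0.25), Rbp7 (0.90, SE 0.24), the retinoic acid receptor Rarb (0.87, SE 0.20), Retsat (0.63, SE 0.13) and Aldh1a1 (0.57, SE 0.13), with limma adjusted p from 0.00726 to 0.0277. Rbp4 itself did not pass. Of 9 adipocyte markers 4 also rose on HFD (median of the list 0.49), as did 2 of 7 endothelial ones (median 0.33), whose summed linear signal was 976 to 1287 in KO and 914 to 1068 in WT on HFD, and 837 to 1024 in KO and 754 to 1050 in WT on ND. The adipocyte sums are given beside Rbp4, and the part of these cells in the retinoid differences was not tested. The 3′ over 5′ control ratio averaged higher on HFD as well, with overlap of the diets in KO. With that ratio in the model 1 retinoid gene passed, and 3 did with the 75th-percentile filter or without the second WT mouse on HFD. Of 21 tested genes of 60S ribosome assembly 6 fell on HFD, beside 6.19% of all tested genes, led by Rrs1 (−0.83, SE 0.13, adjusted p = 0.00163) and the box C/D ribonucleoprotein gene Nop58 (−0.63, SE 0.15, adjusted p = 0.0133), and 1 passed with the ratio in the model. Of 15 tested genes of the phospholipase C list 3 rose on HFD: Plcd4 (1.49, SE 0.18, adjusted p = 0.000308), the Ras activator gene Rasgrp3 (1.16, SE 0.13, adjusted p = 0.000170) and Plcb1 (0.57, SE 0.15, adjusted p = 0.0231). With the ratio in the model 2 genes of that list passed. These alternatives were chosen after seeing the data.

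Several window genes that are not members responded to diet. Ankrd1, a stretch-responsive ankyrin repeat gene at −1.98 Mb, read 12.18, 9.54 and 10.39 in KO and 6.38, 9.50 and 6.12 in WT on HFD, and 12.15, 11.52 and 12.15 in KO and 10.86, 11.48 and 12.37 in WT on ND. It fell on HFD averaged over the genotypes (−2.73, SE 0.55, limma adjusted p = 0.00634), by −1.24 in KO (SE 0.78, adjusted p = 0.407) and −4.23 in WT (SE 0.78, adjusted p = 0.00865). The KO minus WT difference of Ankrd1 was 0.37 on ND (SE 0.78, limma adjusted p = 0.909). On HFD it was 3.37 (SE 0.78, adjusted p = 0.0617), where KO lay above WT without overlap but did not pass. The interaction did not pass either (2.99, SE 1.10, adjusted p = 0.368). The interferon-induced genes Ifit1 (1.03, SE 0.29) and Ifit2 (0.85, SE 0.18) rose, as did the desaturase gene Scd2 (0.58, adjusted p = 0.00743). Sfrp5, a secreted inhibitor of Wnt signalling at 4.08 Mb, near Marveld1, read 6.45, 6.36 and 6.19 in KO and 5.25, 5.99 and 5.19 in WT on HFD, and 5.005, 4.88 and 4.95 in KO and 5.15, 5.30 and 5.56 in WT on ND. KO lay above WT on HFD and below it on ND, each without overlap, but the interaction did not pass (1.25, SE 0.32, adjusted p = 0.209).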
